A study of Mus musculus with 10 samples.

Results

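The genes described here are 10 genes of hair cell mechanotransduction and of the tip link, Tmc1, Tmc2, Lhfpl5, Tmie, Cib2, Pcdh15, Cdh23, Ush1c, Ush1g and Myo7a. They were taken by gene symbol from RNA sequencing counts of the mouse cochlea, which list 54532 genes. All 10 were found, and all 10 were among the 18329 genes with enough reads to be tested. The counts come from 10 mtKeima mice, a strain on a mixed background that expresses a pH-sensitive fluorescent protein in its mitochondria. According to the methods of the study, the strain was genotyped as wild type for the Cdh23 allele linked to age-related hearing loss and for Nnt. The 5 NR-treated mice drank water with nicotinamide riboside (NR), a precursor of NAD+, at 7 mg/ml (24 mM) from 2 months of age for 10 months. The 5 mice labelled Vehicle drank regular water, and the cochlea of all mice was taken at 12 months of age.

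Hair cells turn sound into current at the tips of their stereocilia, the stiff actin-filled rods of the hair bundle. A fine filament, the tip link, runs from the tip of each shorter stereocilium to the side of its taller neighbor, and it pulls on ion channels at its lower end when the bundle is deflected. The cadherin encoded by Cdh23 forms the upper end of this filament and the protocadherin encoded by Pcdh15 the lower end. At the lower end sit the channel proteins encoded by Tmc1 and Tmc2 and their partners encoded by Lhfpl5, Tmie and Cib2. At the upper end the scaffold proteins harmonin (Ush1c) and sans (Ush1g) and the motor protein myosin VIIa (Myo7a) hold the filament to the actin core. Loss of most of these genes causes deafness in mice or humans, and several of them underlie Usher syndrome type 1, which combines deafness, loss of balance and loss of sight.

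In the coordinates of the files, which are on mm10 (GRCm38), the channel genes lie at chr19:20783458-20954202 on the minus strand (Tmc1) and chr2:130195194-130264445 on the plus strand (Tmc2). Their partners lie at chr17:28575641-28585679 on the plus strand (Lhfpl5), chr9:110865711-110880113 on the minus strand (Tmie) and chr9:54544794-54560218 on the minus strand (Cib2). The tip-link genes are far longer, at chr10:73099342-74649737 on the plus strand (Pcdh15) and chr10:60302748-60696490 on the minus strand (Cdh23). The genes of the upper end all lie on the minus strand, at chr7:46195350-46238503 (Ush1c), chr11:115315192-115322041 (Ush1g) and chr7:98051060-98119524 (Myo7a). Reads were counted without regard to strand, so strand cannot assign a read that lies where exons of opposite genes overlap. Whether such reads were counted for either gene was not examined. In the GENCODE M21 annotation, overlapping exons of Als2cl cover 7.89% of the exon bases of Tmie. Those of Sh2d7 cover 15.8% of Cib2 and those of Gm9860 3.12% of Ush1c. The other 7 genes share no exon base with another gene.

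The sequence before the transcription start is shown for 1 gene of each role: a channel gene, a partner, a tip-link cadherin and the motor of the upper end. The sequences are from RefSeq promoter windows (GRCm38.p6), which were found for 8 of the 10 genes and not for Tmc2 or Ush1g. Each is written 5′ to 3′ on the strand of its gene and stops before both the RefSeq start and the start in the files, and capitals mark CG dinucleotides. The windows are chr19:20954203-20954452 for Tmc1, chr9:110880114-110880323 for Tmie, chr10:60696491-60696740 for Cdh23 and chr7:98119525-98119743 for Myo7a.
Tmc1: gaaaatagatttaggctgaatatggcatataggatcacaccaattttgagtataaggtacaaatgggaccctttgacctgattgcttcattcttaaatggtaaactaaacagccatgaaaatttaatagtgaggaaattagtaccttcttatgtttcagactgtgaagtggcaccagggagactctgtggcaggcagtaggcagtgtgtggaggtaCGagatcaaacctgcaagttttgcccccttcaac
Tmie: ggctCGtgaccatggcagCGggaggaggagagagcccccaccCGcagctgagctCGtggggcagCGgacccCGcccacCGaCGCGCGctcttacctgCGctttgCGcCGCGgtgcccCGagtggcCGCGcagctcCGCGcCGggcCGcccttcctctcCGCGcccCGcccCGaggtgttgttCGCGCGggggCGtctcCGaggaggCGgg
Cdh23: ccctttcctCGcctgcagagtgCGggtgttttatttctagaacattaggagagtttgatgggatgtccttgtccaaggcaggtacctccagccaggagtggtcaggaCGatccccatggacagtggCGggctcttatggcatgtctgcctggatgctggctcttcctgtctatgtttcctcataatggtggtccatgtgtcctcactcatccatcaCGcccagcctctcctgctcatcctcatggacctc
Myo7a: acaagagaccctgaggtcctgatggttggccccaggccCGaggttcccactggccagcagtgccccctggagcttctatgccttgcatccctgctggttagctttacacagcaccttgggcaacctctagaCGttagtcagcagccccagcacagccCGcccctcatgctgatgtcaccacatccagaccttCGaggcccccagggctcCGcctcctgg
In the full 250 bases before the RefSeq start, Tmc1 held 1 CG dinucleotide, Cdh23 5, Pcdh15 and the longer Myo7a form 6 each, and Ush1c 7, against a median of 6 over all 32851 windows. Ush1c thus lay just above that median. Cib2 with 15, Lhfpl5 with 24 and Tmie with 33 stood further above it. These 3 CG-rich genes are also those whose levels had the narrowest range over the 10 mice, as given below. That order did not hold without Vehicle 3 and 4, where Myo7a had the narrowest range, at 1.21 times. A link between CG content and the range over mice was not tested. Of 5 short motifs searched on both strands, the TATA-box motif TATAAA was found in Pcdh15, 33 bases before its RefSeq start, and in 12.4% of all windows. That RefSeq start, at chr10:73821867, lies 722525 bases downstream of the start of Pcdh15 given above. The E-box motif CAGCTG was found in Lhfpl5 and Tmie and in 13.0% of windows, and GTTGCC, part of the motif of RFX factors, in Myo7a and in 10.4% of windows. The motifs CAGATG (14.4% of windows) and TAATTA (4.84%) were in none of the 8 genes' windows. A match of this kind is a description and does not show that a factor binds there.

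Between 17060379 and 24419230 reads were counted on genes per mouse, and levels are given as CPM, the share of the reads scaled to a common library size, after TMM scaling. The labels call the mice female and the methods of the study call them male. The Y-linked genes Ddx3y, Eif2s3y, Kdm5d and Uty were at 24.3 CPM or more in all 10 mice and Xist at 0.405 CPM or less, so all 10 libraries went against the label. Hair cells are a small part of the cochlea, and the 10 genes together took 152.7 to 315 CPM. The markers of hair cells were present in every mouse, among them Otof, the otoferlin of the hair cell synapse, at 52.4 to 203 CPM. Slc26a5, the prestin of outer hair cells, lay between 0.0464 and 5.69 CPM.

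At an adjusted p of 0.05 (edgeR quasi-likelihood test, Benjamini-Hochberg over 18329 genes), 0 of the 10 genes differed between NR-treated and Vehicle mice, and 0 of all genes did. The mean was lower with NR for 9 of the 10 genes, all but Ush1g, while 52.9% of all tested genes had a log2 fold change below 0. The median log2 fold change of the 10 genes was -0.37, beside -0.01 over all genes tested. At the unadjusted p of 0.05 that the study used, 1 of the 10 genes, Cdh23, was lower and 0 were higher, where 4.88% of all genes were lower and 4.83% higher. That count was 0 without any one of NR 1, 3, 4 or 5 or of Vehicle 3 or 4, 3 without NR 2, 4 without Vehicle 1 or 2, and 5 without Vehicle 5. No share over all genes is given for these fits, so these counts cannot be weighed against one. With DESeq2 the unadjusted test gave 4 lower genes (Cdh23, Tmc2, Ush1c and Myo7a) and 0 higher ones, where 3.08% and 3.5% of its 33153 genes were called. After adjustment 0 of the 10 genes passed, as 0.157% of its genes did below and 0.16% above. These DESeq2 shares include genes with too few reads for the edgeR test, so they are not like the edgeR shares. No gene had groups that did not overlap, as 0.878% of all genes had below and 0.769% above. In bulk tissue, fewer hair cells and less RNA per hair cell cannot be told apart.

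**Figure D1:**
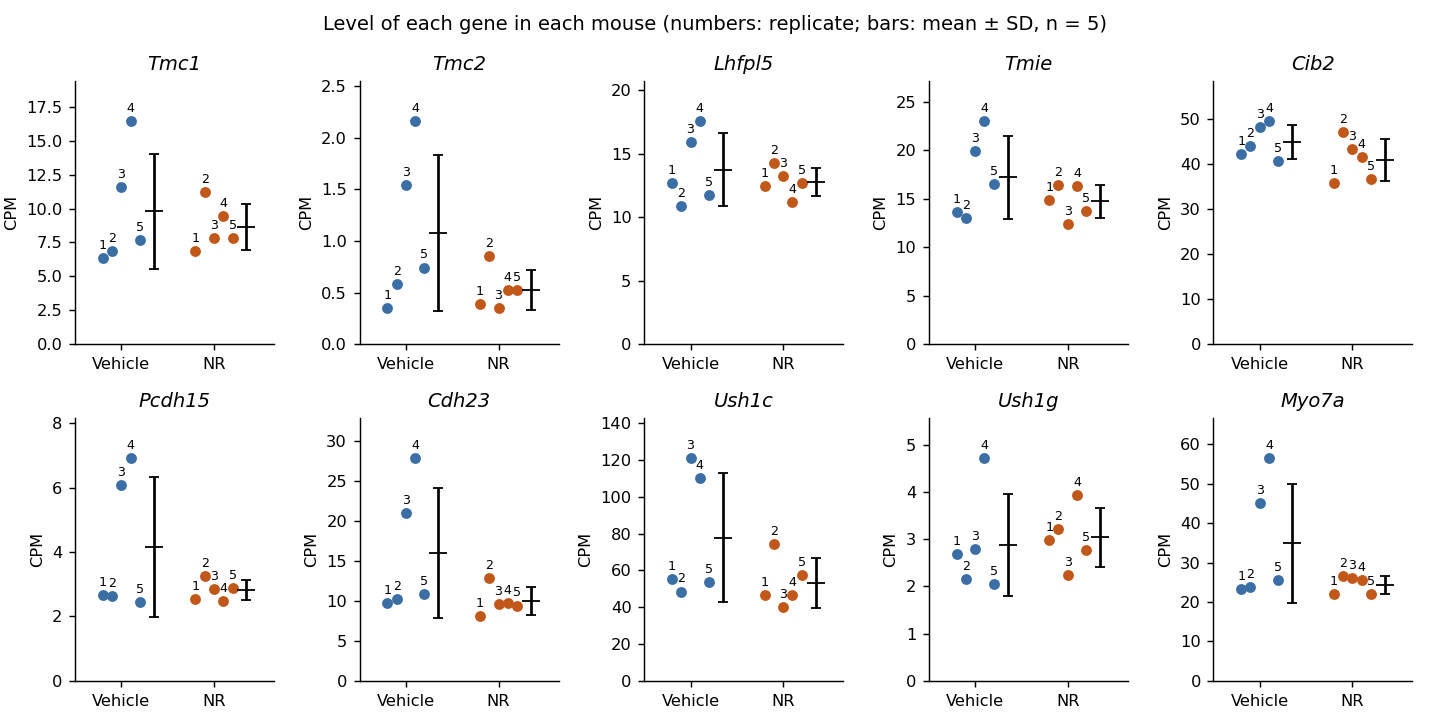
Level of each of the 10 genes in CPM (vertical axis) in each Vehicle and NR-treated mouse, with points numbered by replicate and bars giving the mean and SD of 5 mice. Vehicle 3 and Vehicle 4 lie above the other 8 mice for every gene but Ush1g, and the remaining Vehicle mice overlap the NR-treated mice.

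Tmc1, the channel subunit of mature cochlear hair cells, was at 6.35, 6.87, 11.6, 16.4 and 7.66 CPM in Vehicle 1 to 5. In NR 1 to 5 it was at 6.89, 11.2, 7.83, 9.48 and 7.81 CPM. Vehicle 3 and 4 were the highest mice, NR 2 came close to Vehicle 3, and the other mice of both groups overlapped. The means were 9.79 ± 4.26 CPM in Vehicle and 8.65 ± 1.72 CPM with NR (SD, n = 5 each). The log2 fold change was -0.18 with a standard error (SE) of 0.26 and a 95% interval from -0.76 to 0.40 (adjusted p = 0.832, edgeR).

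Tmc2, the channel subunit that cochlear hair cells use early in development and vestibular hair cells keep, was the least counted gene, with 7 to 49 reads per mouse. It was at 0.348, 0.584, 1.54, 2.16 and 0.743 CPM in Vehicle 1 to 5. With NR it was at 0.386, 0.850, 0.346, 0.524 and 0.521 CPM. Again Vehicle 3 and 4 were the highest and the other 8 mice, from 0.346 to 0.850 CPM, were not separated by treatment. Counting error was wide at this depth, with 95% Poisson intervals of 0.140 to 0.716 CPM for Vehicle 1 and 1.60 to 2.86 CPM for Vehicle 4. The mean was 1.07 ± 0.754 CPM in Vehicle and 0.525 ± 0.198 CPM with NR, and the log2 fold change of -1.03 (SE 0.48) was the largest of the 10 genes (adjusted p = 0.519, edgeR). Its 95% interval ran from -2.09 to 0.02.

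Per kilobase of gene length, Tmc1 exceeded Tmc2 in every mouse, by 5.96 to 17.9 times with a median of 11.1. The ratio was 14.4, 9.29, 5.96, 6.01 and 8.14 in Vehicle 1 to 5 and 10.4 to 17.9 with NR. It was lowest in Vehicle 3 and 4, and Vehicle 1 lay within the range of the NR-treated mice. The length of Tmc1 in the files, 4073 bases, is shorter than the 7190 exon bases of GENCODE M21, so that these ratios depend on the gene model.

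Of the partners, Lhfpl5, a membrane protein that joins the channel to Pcdh15, was at 12.7, 10.9, 15.9, 17.5 and 11.7 CPM in Vehicle 1 to 5. With NR it was at 12.5, 14.3, 13.2, 11.2 and 12.7 CPM. The groups overlapped outside Vehicle 3 and 4, and the log2 fold change was -0.11 (SE 0.14, 95% interval -0.41 to 0.20). Tmie, a small membrane protein needed for the channel to work, was at 13.7, 13.0, 19.9, 23.0 and 16.5 CPM in Vehicle and at 14.9, 16.4, 12.4, 16.3 and 13.7 CPM with NR. Its log2 fold change was -0.22 (SE 0.16, 95% interval -0.58 to 0.13). Vehicle 3 and 4 were again above all others.

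Cib2, a calcium-binding protein that binds the TMC channels, varied least. It was at 42.2, 44.0, 48.4, 49.6 and 40.7 CPM in Vehicle 1 to 5. With NR it was at 35.8, 47.1, 43.4, 41.6 and 36.8 CPM. Its highest level was 1.39 times its lowest, where the other genes spanned 1.61 (Lhfpl5) to 6.24 times (Tmc2), and Vehicle 3 and 4 stood only just above NR 2. The log2 fold change was -0.14 (SE 0.09, 95% interval -0.33 to 0.06). The adjusted p-values of these 3 partners lay between 0.640 and 0.811 (edgeR).

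The tip-link cadherins differed more between mice. Cdh23 was at 9.78, 10.3, 21.0, 27.9 and 10.9 CPM in Vehicle 1 to 5 and at 8.10, 12.8, 9.61, 9.74 and 9.43 CPM in NR 1 to 5. The mean was 16.0 ± 8.12 CPM in Vehicle and 9.94 ± 1.75 CPM with NR. The log2 fold change was -0.68 (SE 0.30, 95% interval -1.33 to -0.03, unadjusted p = 0.0410, adjusted p = 0.499, edgeR). An exact two-sided permutation test of its log2 CPM over all labelings of the mice gave p = 0.135. Without Vehicle 4 alone the log2 fold change was -0.39. In Vehicle 3 and 4 Cdh23 was above every other mouse by more than 1.5 times, and Vehicle 1, 2 and 5 lay within the range of the NR-treated mice.

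Pcdh15 was at 2.68, 2.65, 6.07, 6.92 and 2.46 CPM in Vehicle 1 to 5 and at 2.55, 3.27, 2.86, 2.49 and 2.89 CPM with NR. The 8 mice other than Vehicle 3 and 4 lay within 2.46 to 3.27 CPM, and the log2 fold change was -0.57 (SE 0.31, adjusted p = 0.577, edgeR). Per kilobase, Cdh23 exceeded Pcdh15 by 4.45 to 6.22 times with a median of 5.28 over the mice. Over all 10 mice this ratio varied less than the level of either gene. Outside Vehicle 3 and 4 the ratio still ran from 4.45 to 6.22. There Pcdh15 spanned 1.33 times, less than the ratio did, and Cdh23 1.59 times. The gene length of Pcdh15, 23773 bases, sums the exons of many splice forms, which lowers its level per kilobase.

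Of the genes of the upper end, Ush1c was at 55.6, 48.6, 121, 110 and 53.9 CPM in Vehicle 1 to 5. With NR it was at 46.6, 74.4, 40.4, 46.7 and 57.6 CPM. It was the one gene with its highest level in Vehicle 3, and NR 2 was next after Vehicle 3 and 4. The log2 fold change was -0.55 (SE 0.28, 95% interval -1.17 to 0.07, adjusted p = 0.550, edgeR).

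Myo7a was at 23.3, 23.7, 45.0, 56.6 and 25.7 CPM in Vehicle 1 to 5 and at 22.0, 26.5, 26.0, 25.5 and 22.0 CPM in NR 1 to 5. The 8 mice other than Vehicle 3 and 4 spanned only 1.21 times, the narrowest of the 10 genes. Its log2 fold change was -0.51 (SE 0.24, 95% interval -1.05 to 0.02, adjusted p = 0.527, edgeR).

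Ush1g was the exception. It was at 2.68, 2.15, 2.79, 4.72 and 2.04 CPM in Vehicle 1 to 5 and at 2.99, 3.22, 2.25, 3.93 and 2.78 CPM in NR 1 to 5. Vehicle 4 was the highest mouse, as for 8 of the other 9 genes, but Vehicle 3 lay among the rest and NR 4 was second. The log2 fold change was 0.08 (SE 0.25, 95% interval -0.47 to 0.62, adjusted p = 0.934, edgeR). Over all 10 genes the exact permutation p-values of log2 CPM lay between 0.135 and 0.786, where the design allows 0.00794 at the least.

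**Figure D2:**
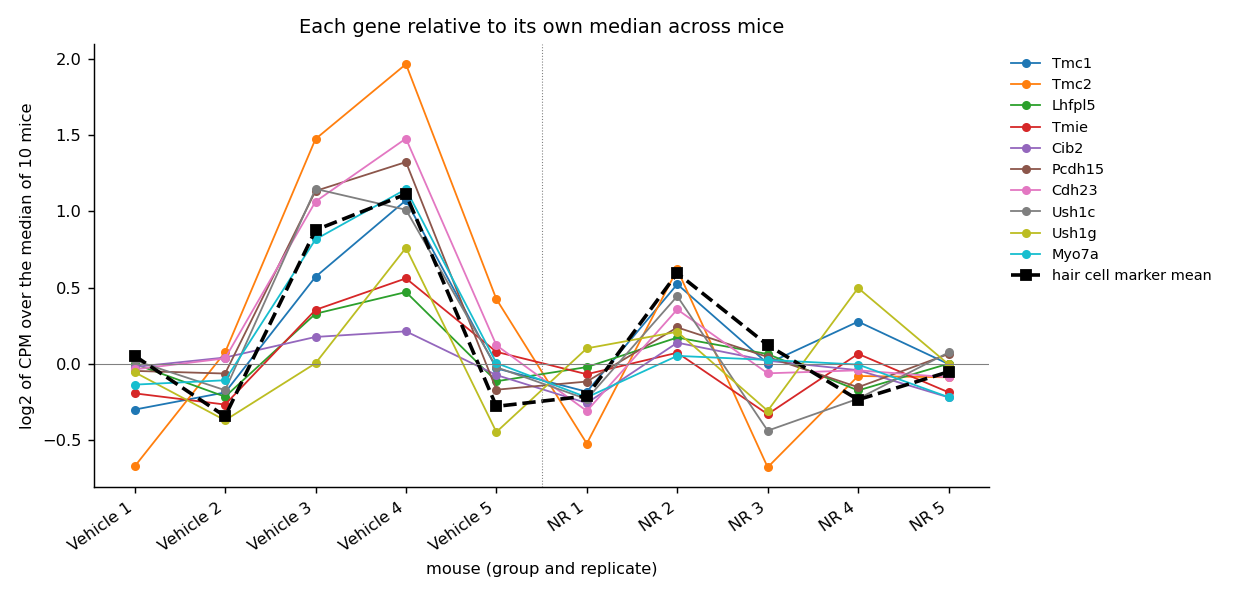
Log2 of the CPM of each gene over its own median of the 10 mice (vertical axis) for each mouse (horizontal axis, Vehicle left of the dotted line), with the mean log2 CPM of 13 hair cell markers, less its median, as a dashed black line. Vehicle 3 and 4 rise above the other mice for the 10 genes other than Ush1g in Vehicle 3, as the hair cell markers do, and NR 2 is next for 8 of the 10 genes.

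Vehicle 3 and 4 thus set much of the difference between the groups. Both were above the other 8 mice for 9 of the 10 genes, which held for 11.5% of all tested genes, and that these mice stand apart for hair cell genes was known when the genes were chosen. Summed over the 10 genes, the level was 293 and 315 CPM in these mice and 152.7 to 210 CPM in the other 8. Without Vehicle 3 and 4, an alternative chosen after the data had been seen, the log2 fold change was below 0 for 3 of the 10 genes (47.5% of all genes) and its median was 0.03, beside 0.01 over all genes. It was -0.05 for Cdh23 (SE 0.15), 0.02 for Myo7a (SE 0.09), -0.09 for Tmc2 (SE 0.39) and 0.32 for Tmc1 (SE 0.17). In this fit 0 of the 10 genes passed the unadjusted threshold (5.58% of all genes lower, 4.11% higher).

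Each gene's log2 CPM was set against the mean of the other 9 over the 10 mice, as a description of mice that share the high level of Vehicle 3 and 4. Pearson's r was highest for Cdh23 at 0.979, and lowest for Cib2 at 0.741 and Ush1g at 0.565. Without Vehicle 3 and 4 it was highest for Tmc1 at 0.853, ahead of Cdh23 at 0.794, and lowest for Cib2 at 0.475, Lhfpl5 at 0.344 and Ush1g at 0.230. The genes outside the 10 with the most similar profile to their mean log2 CPM, of 18319 compared over the 10 mice, were Slc44a2 (r = 0.993), Actn4 (0.986), Frmd4b (0.986), Sft2d2 (0.984) and BC006965 (0.983). Slc44a2 encodes a choline transporter-like protein of the inner ear, and Actn4 an actin crosslinker. Without Vehicle 3 and 4 these values were 0.942, 0.878, 0.878, 0.916 and 0.883.

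Markers of hair cells were high in the same mice. Of 13 hair cell markers, 12 had a log2 fold change below 0 and in 12 both Vehicle 3 and 4 lay above the others. Their log2 fold changes had a median of -0.49. Their summed level was 254 to 566 CPM in Vehicle and 263 to 408 CPM with NR. None was at 0 in any mouse, though Slc26a5 was at only 0.135 CPM in Vehicle 2 and 0.0464 CPM in Vehicle 5. The lowest log2 fold change was that of Chrna9, the acetylcholine receptor subunit of outer hair cells, at -0.78 (SE 0.39). Gfi1, a transcription factor of hair cells, alone passed the unadjusted threshold, at -0.50 (SE 0.19).

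Relative to the hair cell markers, the mean log2 CPM of the 10 genes was -0.04 ± 0.22 in Vehicle and -0.10 ± 0.23 with NR (SD, n = 5), and these ranges overlapped. With the mean of the hair cell markers as a covariate, 7 of the 10 genes had a log2 fold change below 0 and the median was -0.15. Cdh23 kept the only unadjusted call, at -0.35 (SE 0.13, unadjusted p = 0.0183, adjusted p = 0.473, edgeR), beside 5.1% of all genes lower and 4.4% higher. With the supporting cell markers as the covariate instead, Cdh23 was at 0.040 (SE 0.15, unadjusted p = 0.795, edgeR), so that the call was lost and the direction turned. Cdh23 relative to the hair cell markers was 0.33 ± 0.21 in Vehicle and 0.01 ± 0.17 with NR on the log2 scale. The part that the number of hair cells has in these differences was not tested.

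**Figure D3:**
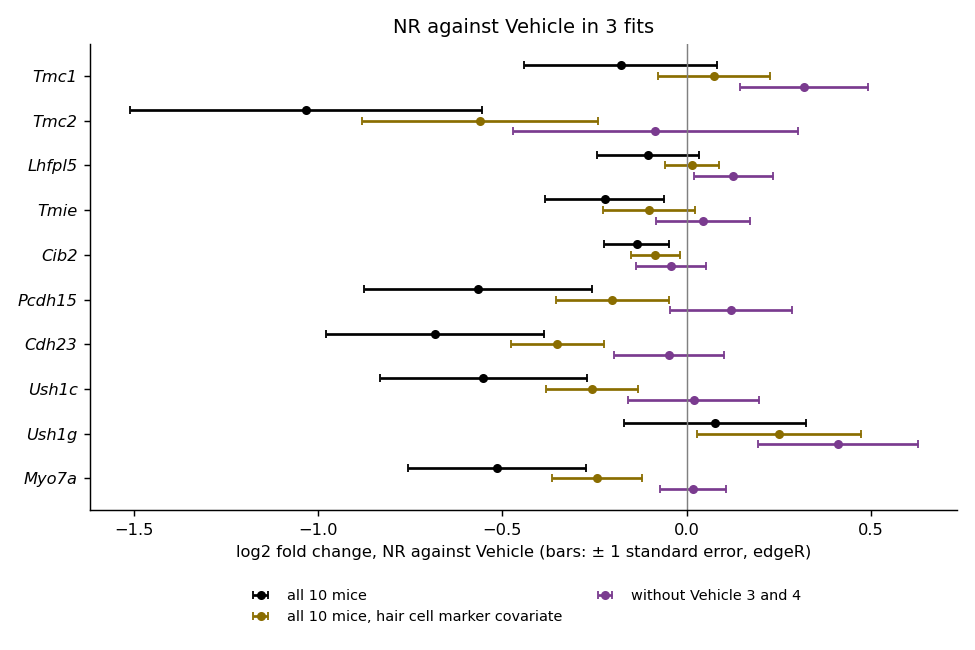
Log2 fold change of each gene, NR against Vehicle (horizontal axis), from all 10 mice (black), with the hair cell markers as a covariate (ochre) and without Vehicle 3 and 4 (purple), where points are edgeR estimates and bars ± 1 SE. For all 10 genes the value moves up from the first fit to the last, from a median of -0.37 to one of 0.03.

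Supporting cell and tectorial membrane genes were higher in the same Vehicle mice. Of 12 such genes, 11 had a log2 fold change below 0 and 8 passed the unadjusted threshold, with a median of -0.61, and 9 had Vehicle 3 and 4 above all others. Their sum was 1750 to 3394 CPM in Vehicle and 1473 to 2109 CPM with NR, and none was at 0. The most abundant, Gjb2, the connexin 26 of supporting cells and fibrocytes, was at -0.52 (SE 0.21), Tectb, a protein of the tectorial membrane, was lowest at -1.43 (SE 0.56) and Fgfr3 highest at 0.13 (SE 0.25). Of 10 genes of the stria vascularis and of fibrocytes, 10 were below 0 with a median of -0.63 and 6 passed that threshold. Their sums were 4437 to 7278 CPM in Vehicle and 3629 to 5650 CPM with NR. Vehicle 3 and 4 had sums of 7266 and 7278 CPM, and for 8 of these genes both lay above all others. Neuron markers went the other way, with 7 of 9 above 0, and their sum was 4453 and 4692 CPM in Vehicle 3 and 4 and 5094 to 6695 CPM in the other 8 mice. Of these, Tubb3, a neuronal tubulin, passed the unadjusted threshold at 0.49 (SE 0.13).

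Of 5 vestibular markers 2 were below 0, Nox3 and Otol1, of which Otol1 was lowest at -0.82 (SE 0.37) and passed the unadjusted threshold. The 5 markers summed to 49.2 and 54.0 CPM in Vehicle 3 and 4 and to 20.6 to 44.8 CPM in the other 8 mice. Only 1 of them, Otol1, had both of these mice above all others. Of 5 Schwann cell markers 0 passed that threshold, and their median was 0.12. Skeletal muscle genes summed to 11.2 to 849.8 CPM with NR and 8.96 to 73.4 CPM in Vehicle, and 6 of 7 were higher at the unadjusted threshold. Adipocyte genes summed to 34.5 to 73.3 CPM with NR and 6.47 to 22.9 CPM in Vehicle, with Lep and Retn at 0 in some mice. In neither list were Vehicle 3 and 4 high, at sums of 11.2 and 9.92 CPM for muscle and 6.47 and 6.88 CPM for adipocyte genes. Marrow genes were low in these mice, with sums of 4421 and 3003 CPM in Vehicle 3 and 4 and 5721 to 10616 CPM in the other 8, and 8 of 11 were below 0 with 0 past the unadjusted threshold. Of 6 bone genes 3 were below 0 and 1, the collagen gene Col1a1, was higher at the unadjusted threshold at 1.74 (SE 0.48). Bone genes summed to 427 and 231 CPM in Vehicle 3 and 4 and 354 to 1827 CPM in the other 8. The part of any of these cells in the values of the 10 genes was not tested. In the edgeR fit 0 genes of any list passed at an adjusted p of 0.05. The study, which used DESeq2, names Cidec and Plin1 of the adipocyte list among its top genes at that adjusted threshold.

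Other genes of the hair bundle were taken from 3 lists. Of 13 tested relatives of the channel complex, 10 were below 0, with a median of -0.11 and 1 call at the unadjusted threshold. That gene, Tomt, which brings the TMC proteins to the bundle, was at -0.63 (SE 0.25, unadjusted p = 0.0275, adjusted p = 0.476, edgeR). Tomt was at 4.61 and 4.89 CPM in Vehicle 3 and 4 and at 1.78 to 3.34 CPM in the other mice. None of Tmc3 to Tmc8 had both of these mice above the others. Lhfpl4, a relative of Lhfpl5 at inhibitory synapses, was the most abundant and the highest, at 0.21 (SE 0.13), and was lower in Vehicle 3 and 4 (124 and 117 CPM) than in the other 8 mice (153 to 196 CPM). In this list only 2 of 15 genes, Tomt and Cib3, had Vehicle 3 and 4 above all other mice. Cib3, the relative of Cib2 known from vestibular hair cells, was at -0.57 (SE 0.36).

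Of 8 genes of the other links between stereocilia, 6 were below 0, with a median of -0.11, and 0 passed the unadjusted threshold. Strc, the stereocilin of the outer hair cell bundle, was lowest at -0.70 (SE 0.36), and Whrn, the whirlin scaffold, was highest and most abundant at 0.04 (SE 0.18). Of 22 genes of the stereocilia core and its motors, 21 were below 0, with a median of -0.25, and 17 had Vehicle 3 and 4 above the other mice. At the unadjusted threshold 2 were lower, Loxhd1, which stereocilia need to keep transducing, at -0.90 (SE 0.33) and Pls1, an actin bundler, at -0.40 (SE 0.16). Loxhd1 was at 37.1 and 40.1 CPM in Vehicle 3 and 4 and at 9.78 to 16.5 CPM in the other mice. The one gene above 0 was Xirp2, an actin-binding protein, at 0.12 (SE 0.37), and the most abundant, the calcium pump gene Atp2b2, was at -0.10 (SE 0.10).

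**Figure D4:**
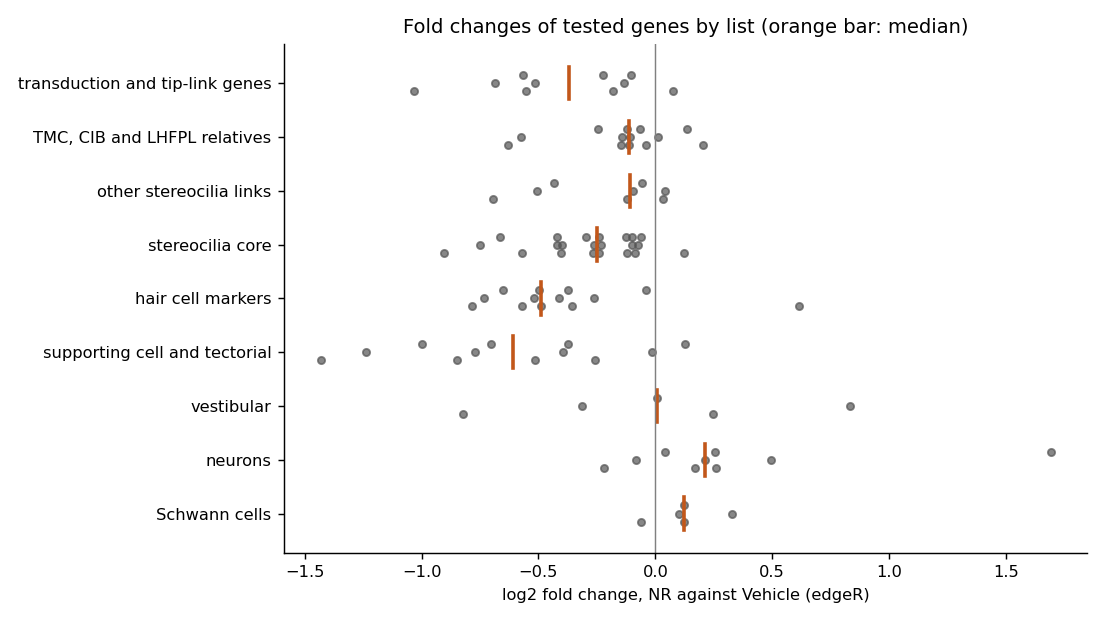
Log2 fold change, NR against Vehicle (horizontal axis), of each tested gene in 9 of the lists (vertical axis, without stria and fibrocytes, muscle, adipocytes, bone, marrow and sex), with an orange bar at the median of each list. Among the lists shown the medians run from -0.61 for supporting cell and tectorial genes and -0.49 for hair cell markers, through -0.37 for the 10 transduction and tip-link genes, to 0.21 for neurons.

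Levels of the 10 genes were compared with each other only per kilobase of gene length, as means of all 10 mice. Cib2 was highest at 30.0 CPM per kilobase, followed by Ush1c at 17.0, Lhfpl5 at 5.55, Tmie at 5.17, Myo7a at 3.46 and Tmc1 at 2.26. Ush1g at 0.894, Cdh23 at 0.765, Tmc2 at 0.249 and Pcdh15 at 0.147 were lowest. Cib2 stood at the percentile 90.2 of all tested genes and Pcdh15 at 1.35. Neighbors in this order overlapped over the mice, except Ush1c with Lhfpl5 and Tmc1 with Ush1g. The last separation depends on the gene model, since over 7190 exon bases Tmc1 would lie between 0.884 and 2.29 CPM per kilobase, and Ush1g reached 1.43. Within single mice, Lhfpl5 exceeded Tmie in 7 of 10, Ush1g exceeded Cdh23 in 7 of 10 and Tmc2 exceeded Pcdh15 in 8 of 10, and each other gene exceeded the next in all 10 mice.

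**Figure D5:**
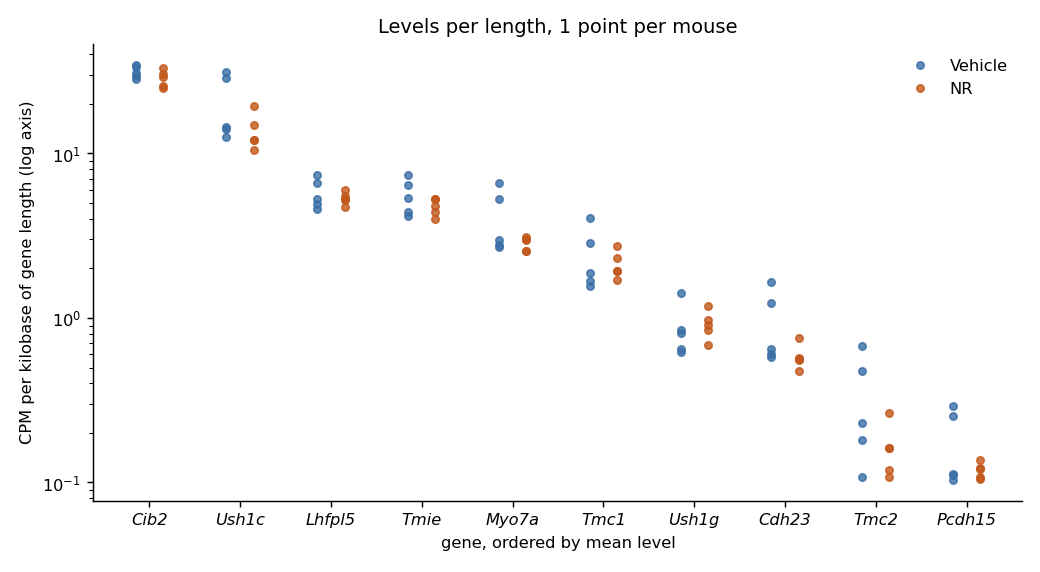
Level of each gene in CPM per kilobase of gene length (vertical log axis), 1 point per mouse, with Vehicle in blue and NR in orange and genes ordered by their mean. The levels fall from 30.0 for Cib2 to 0.147 for Pcdh15, and in both Tmc2 and Pcdh15 a pair of Vehicle mice lies above the rest.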

How the data were processed

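RNA was from the cochlea of 5 NR-treated and 5 Vehicle mtKeima mice, with 1 poly(A) library per mouse, paired-end sequencing and unstranded counting. The authors deposited raw read counts per gene without normalization, made by Novogene with STAR 2.6.1d (mm10, 2 mismatches allowed) and featureCounts 1.5.0 in its default mode. The annotation release is not given in the sources used here, and 98.3% of the 54409 gene identifiers found in GENCODE M21 had its coordinates. No pair of libraries agreed within sampling noise. Whether the mice of a group shared a litter or cage is not stated.

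From these counts, CPM with TMM scaling were computed with edgeR 4.0.16 in R 4.3.3. Genes passing filterByExpr were tested with its quasi-likelihood test without covariates, and p-values were adjusted over all 18329 genes. Single genes were also tested with exact two-sided permutations of log2 CPM (prior count 2). Intervals on single counts cover counting error only. Alternatives were DESeq2 1.42.0, other scaling, filter and dispersion settings, the replicate number as a block, marker covariates and leaving out mice. Python 3.11.15 was used for annotation and figures.

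The 10 genes, the gene lists (relatives of the channel complex, other links, stereocilia core, and markers of hair cells, supporting cells, stria and fibrocytes, vestibule, neurons, Schwann cells, muscle, adipocytes, bone, marrow and sex) were chosen with earlier results of these data known. Named are the 10 genes, in the lists the highest and lowest log2 fold change and the most abundant gene, and the 5 genes most similar in profile. Otof, Slc26a5, Gfi1, Tubb3, Nox3, Pls1, Cib3, Lep and Retn were named after their values were seen. The lists of stria, vestibule, neurons, Schwann cells, muscle, adipocytes, bone and marrow are described by counts and sums, without every gene that this rule names, and the values of some markers are not reported here.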

Additional observations from a re-analysis of the deposited data

Results flagged for a closer look

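Ush1g in the Vehicle group was the one result picked out by Dixon's test for a value far from its group. Vehicle 4, at 4.72 CPM, lay apart from the other 4 mice, at 2.04 to 2.79 CPM, and the gap took 0.72 of the range of the group, where 0.71 is the limit for 5 samples. Chance picks out about 1 in 20 groups, and 20 groups (10 genes in 2 groups each) were examined. The other 9 genes were not picked out in Vehicle, where their high level was shared by a pair of mice.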

How the results depend on the processing

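Under all 19 alternatives to the fit of all genes, 0 of the 10 genes passed at an adjusted p of 0.05, and the smallest adjusted p of any of them was 0.290 (Tmc2). The count of genes lower at the unadjusted p of 0.05, which was 1, was 3 with all genes of at least 1 read, 4 with DESeq2, 0 with the replicate block, 0 with the supporting cell covariate, 0 without Vehicle 3 and 4 together, and 0 to 5 when single mice were left out. The supporting cell covariate gave 1 higher gene, Tmc1. Of these alternatives, shares over all genes are given above only for DESeq2 and for the fit without Vehicle 3 and 4 together. The median log2 fold change of -0.37 was 0.087 with the supporting cell covariate and 0.031 without Vehicle 3 and 4 together, and -0.46 to -0.18 when single mice were left out. The replicate numbers did not pair the mice, with correlations of -0.22 to 0.17 between mice of the same number. With the replicate block the median was -0.31.

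Directions turned for 9 genes with the supporting cell covariate, where the log2 fold change was 0.040 for Cdh23, 0.016 for Cib2, 0.13 for Lhfpl5, 0.070 for Myo7a, 0.15 for Pcdh15, 0.42 for Tmc1, 0.053 for Tmc2, 0.087 for Tmie and 0.088 for Ush1c. With the hair cell covariate it was 0.014 for Lhfpl5 and 0.074 for Tmc1. Without Vehicle 3 and 4 together it was 0.13 for Lhfpl5, 0.016 for Myo7a, 0.12 for Pcdh15, 0.32 for Tmc1, 0.044 for Tmie and 0.019 for Ush1c. The difference in mean log2 CPM was then 0.12 for Lhfpl5, 0.0066 for Myo7a, 0.11 for Pcdh15, 0.29 for Tmc1 and 0.038 for Tmie. When single mice were left out, the log2 fold change ran from -0.29 to 0.090 for Tmc1 (-0.23 to 0.11 in mean log2 CPM), from -0.17 to 2e-04 for Lhfpl5 (-0.16 to 0.0087 in mean log2 CPM) and from -0.025 to 0.33 for Ush1g. The first 2 turned without Vehicle 4, and Ush1g turned without NR 4 or Vehicle 5. The causes were not tested beyond the mice or terms named. Depth limits Tmc2 most, with 7 to 49 reads per mouse.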
